A study of Mus musculus with 6 samples.

Results

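The genes described here are 46 genes of DNA replication and the S phase of the cell cycle, taken by symbol from the 23349 genes of the deposited expression sheet: E2F factors, cyclins and kinases of the G1/S transition, origin licensing proteins, replicative polymerases and their helpers, enzymes of nucleotide synthesis and chromatin factors of the replication fork. All 46 symbols were found, and 44 passed the filter of a mean of at least 1 TPM (transcripts in a total of 1000000). The 2 that did not are D-type cyclins, Ccnd1 and Ccnd2. They were measured in iPAM cells, a derivative of the mouse corticotrope tumour line AtT-20 that makes more of one enzyme when given doxycycline: PAM, peptidylglycine alpha-amidating monooxygenase, which amidates peptide hormones in the secretory pathway. The basal group (3 libraries) had PAM at its resting level, and the induced group (3 libraries) received doxycycline at 4 micrograms per ml during the 48 h before harvest. Both groups are iPAM cells passaged with G418 and hygromycin and harvested dense. Doxycycline and raised PAM cannot be told apart in this design, the labels do not say whether the line is a single clone, and no label ties the libraries to separate cultures. The p-values therefore reflect only library-to-library spread, which may be technical.

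Cells commit to S phase when cyclin D and cyclin E kinases phosphorylate the retinoblastoma protein and free the activating E2F factors. These factors switch on the genes of licensing, replication and nucleotide supply, while the atypical factors E2F7 and E2F8 are E2F targets themselves and shut the programme down again later in S phase. Licensing loads the MCM2-7 helicase onto origins by means of ORC, CDC6 and CDT1. MCM10, CDC45 and the GINS complex then turn it into a working helicase, and polymerases, the sliding clamp PCNA and its loader RFC follow. The promoters of such genes are known for E2F sites. AtT-20 cells, like other tumour lines, divide in culture.

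The E2F element was looked for in the promoters of these genes. The RefSeq promoter table (build GRCm38.p6, the same assembly as mm10) gave windows for 38 of the 46 genes, from 250 bases before to 50 after a start that it lists. The listed start was not in all genes the start of the GENCODE gene model, so a window can lie inside the gene. The E2F core was searched on both strands as TTCCCGC or TTCGCGC or TTGCCGC or TTGGCGC, counting overlapping matches. It was present in at least one window of 26 of the 38 genes (68.4%), against 20.3% of the 9159 tested genes with a window and 10.9% of all 27025 genes with one. The CCAAT box (CCAAT, both strands) was held by 68.4% of the 38 genes and 43.7% of the tested genes, and TTTGAA, the core of an element of later cell cycle genes, by 18.4% and 13.4%. A match of one motif could share bases with a match of another. These matches describe letters in a window and are not shown to be bound sites. The windows below are those of 5 genes whose levels are described further on: both atypical E2F genes, a licensing factor, a helicase subunit and a maintenance methylation factor. They are written in the direction of transcription, 5′ to 3′, and capitals mark the E2F core on either strand.
E2f8, chr7:48881547-48881846 (minus strand): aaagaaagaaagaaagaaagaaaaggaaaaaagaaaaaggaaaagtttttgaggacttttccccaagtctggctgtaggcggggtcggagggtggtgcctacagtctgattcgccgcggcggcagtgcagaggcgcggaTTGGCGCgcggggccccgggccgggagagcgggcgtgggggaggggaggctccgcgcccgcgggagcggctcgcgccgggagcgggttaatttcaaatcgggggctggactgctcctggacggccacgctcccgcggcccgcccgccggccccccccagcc
E2f7, chr10:110745189-110745488 (plus strand): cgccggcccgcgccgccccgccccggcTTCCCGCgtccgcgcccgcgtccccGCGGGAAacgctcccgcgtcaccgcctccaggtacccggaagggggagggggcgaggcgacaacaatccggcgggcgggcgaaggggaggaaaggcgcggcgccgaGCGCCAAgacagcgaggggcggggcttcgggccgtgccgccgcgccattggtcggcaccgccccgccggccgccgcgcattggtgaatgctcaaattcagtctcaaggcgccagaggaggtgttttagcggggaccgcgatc
Cdc6, chr11:98907901-98908200 (plus strand): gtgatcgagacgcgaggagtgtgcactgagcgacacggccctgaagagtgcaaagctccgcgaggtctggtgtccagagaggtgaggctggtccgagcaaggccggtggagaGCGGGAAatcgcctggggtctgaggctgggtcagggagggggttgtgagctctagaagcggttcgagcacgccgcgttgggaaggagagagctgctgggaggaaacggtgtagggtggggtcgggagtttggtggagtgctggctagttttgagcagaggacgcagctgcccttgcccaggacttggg
Mcm7, chr5:138171834-138172133 (minus strand): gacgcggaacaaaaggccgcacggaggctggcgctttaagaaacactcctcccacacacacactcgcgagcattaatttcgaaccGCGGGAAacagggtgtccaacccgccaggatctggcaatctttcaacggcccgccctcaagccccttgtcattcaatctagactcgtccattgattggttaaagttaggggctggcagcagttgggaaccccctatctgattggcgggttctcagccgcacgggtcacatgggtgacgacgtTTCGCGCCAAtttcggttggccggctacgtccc
Uhrf1, chr17:56303087-56303386 (plus strand): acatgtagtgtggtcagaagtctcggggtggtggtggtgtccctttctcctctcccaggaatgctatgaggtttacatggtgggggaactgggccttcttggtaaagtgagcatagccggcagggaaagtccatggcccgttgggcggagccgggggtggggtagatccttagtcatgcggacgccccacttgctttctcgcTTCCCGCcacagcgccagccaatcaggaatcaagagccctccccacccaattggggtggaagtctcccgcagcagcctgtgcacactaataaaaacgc
The match began 111 bases before the listed start in E2f8 and 48 bases before it in Uhrf1. E2f7 held 3 matches. In the Mcm7 window a pair of overlapping matches on opposite strands lay just past the listed start, beginning at 17 and 20 bases after it. The printed Cdc6 and Mcm7 windows lie wholly inside the GENCODE gene models, which start at 98907801 for Cdc6 and at 138172422 for Mcm7. Their matches are therefore not upstream of those starts. Both Mcm7 and Uhrf1 have another window in the table, which is not printed.

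Pam was high in the libraries labelled induced. It stood at 92.6, 82.8 and 66.9 TPM in the basal and 507, 399 and 258 TPM in the induced libraries, a 4.8-fold higher mean in induced cells (log2 difference 2.21, limma adjusted p = 0.021), and a two-sided exact permutation test gave p = 0.1, the smallest that 3 against 3 can give. Of 9 corticotrope markers, 8 passed the filter, and their summed level ran from 23192 to 32153 TPM in basal and 21607 to 30522 TPM in induced libraries. Most of this sum was Pomc, with means of 26183 TPM in basal and 23484 TPM in induced libraries. With the block 1 of the 8 fell (Nr3c1, log2 difference -0.44, limma adjusted p = 0.0159) and 1 rose (Pcsk1, 0.32, limma adjusted p = 0.0384), against 14% and 8.23% of all genes. Without the block neither passed. The 14 markers of other pituitary and stromal cells summed to 13.9 to 17.8 TPM in basal and 7.98 to 15.3 TPM in induced libraries. Of these 3 (Tshb, Fshb and Pou1f1) were listed at 0 in all libraries, and 2 (Sox2 and Col1a1) passed the filter. The fibroblast collagen gene Col1a1 fell with the block from 3.36 to 1.56 TPM (log2 difference -0.75, limma adjusted p = 0.127, or 0.017 with the block). The other collagen gene of the list, Col1a2, was at 0.0519 TPM in basal 1 and at 0 in every other library. Pecam1 and Ptprc stayed below 1 TPM in every library. The part of such cells in the results below was not tested. The libraries numbered 3 stand apart from the others in both groups. Deviations from the group means correlated over genes between equal numbers, most for number 3 (r = 0.72). For number 2 the pairing was not clear: basal 2 correlated more with induced 1 (0.28) than with induced 2 (0.18). The tests are given without and with the column number as a block.

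As a group the replication genes stood below the median of all genes in induced cells by 0.22 on the log2(TPM + 1) scale, and the direction against zero depended on the scale. Of the 44 tested genes, 39 had a negative log2 difference (induced minus basal), with a median of -0.26, against 55.1% negative and a median of -0.04 over all 12400 genes. The log2 differences in the deposited DESeq2 table lay above those of this fit by a median of 0.43, over the tested genes it lists. That table lists 195 genes, 47 of them lower and 0 of them members, and the spread of the offset was not measured. Adding 0.43 to every induced value is called the deposited DESeq2 scale here. On this scale the median of the 44 genes became 0.17 and that of all genes 0.39, with 14 of the 44 negative. The distance to the median of all genes is therefore the same on both scales, and it ran from -0.32 to -0.14 over all settings tried, smallest in size without basal 3. At this distance 33 of the 44 genes (75%) lay below the median of all genes.

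Over all genes tested, 1 of the 44 passed the limma threshold (adjusted p under 0.05), lower in induced cells, against a background of 1.06% lower and 0.129% higher. An unadjusted limma p under 0.05 was found for 13 lower and 1 higher of the 44, where all 12400 genes gave 1185 and 686. With the block 18 of 44 were lower and 0 higher, against 14% lower and 8.23% higher over all genes. In 17 of the 44 (38.6%) all induced libraries lay below all basal libraries, and in 2 all lay above, where all genes gave 12.6% and 9.04%. Among the 10501 genes that average 5 TPM or more, which include all 44, the share with all induced libraries below was 11.8%, and the share lower with the block 14.6%. Equal column numbers compared, 31 of the 44 (70.5%) were lower in every one of the 3 induced libraries and 2 (4.55%) higher in every one, against 32.6% and 23.6% of all genes. On the deposited DESeq2 scale the block called 3 of these genes lower (E2f7, E2f8 and Rrm2) and 15 higher, while all genes were then 3.78% lower and 61.8% higher; without the block that scale gave 0 lower and 3 higher (E2f2, Cdk4 and Gins1), against 1% and 19% of all genes. Of the 18 genes lower with the block, 4 had a positive log2 difference on that scale: E2f1 (0.12), Cdk2 (0.069), Cdt1 (0.059) and Lig1 (0.0062). Because whole wells were sampled, fewer cells in S phase and less RNA of these genes per cell cannot be told apart.

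**Figure D1:**
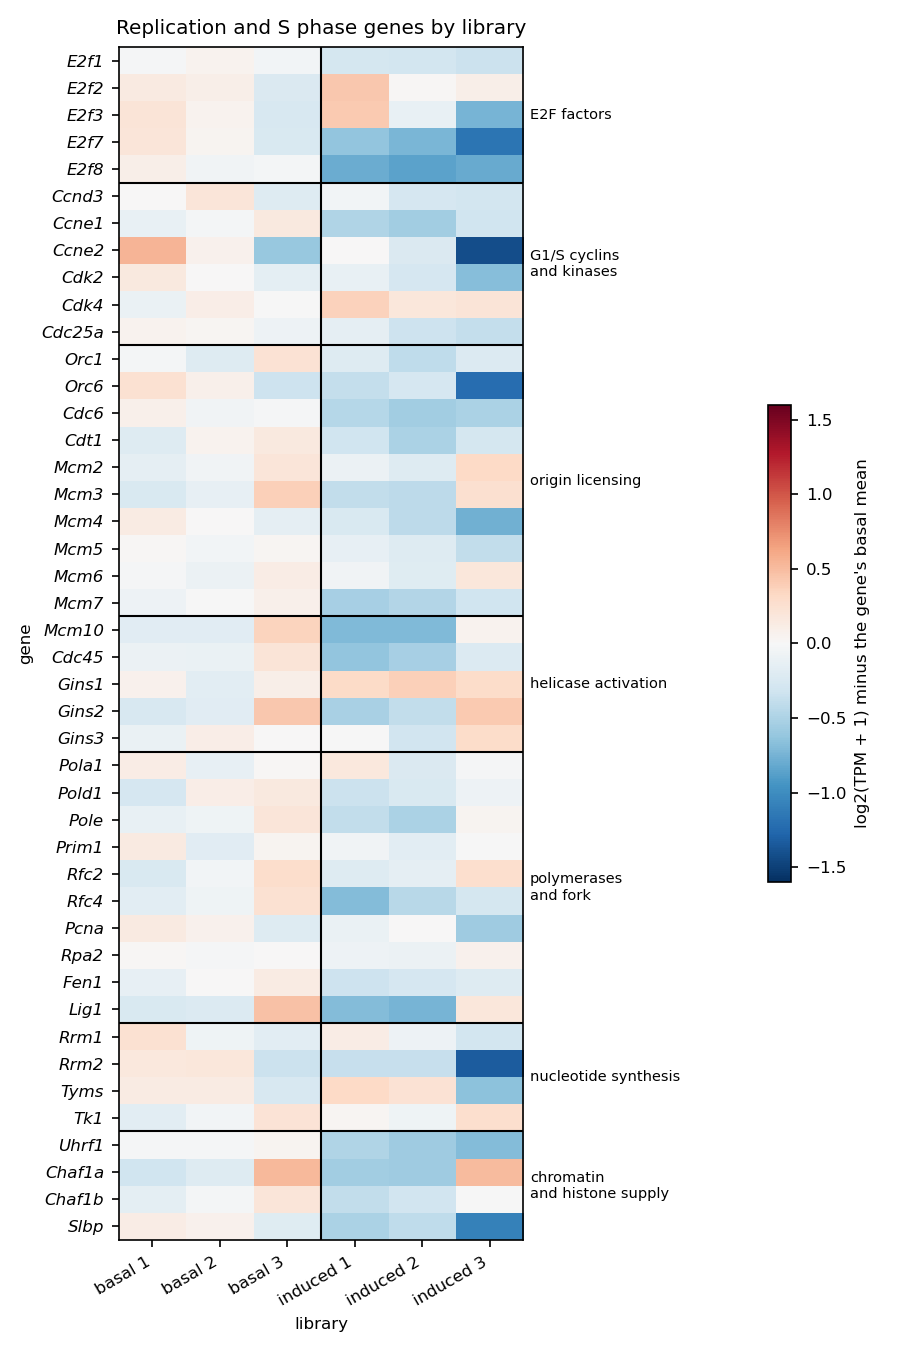
Heat map of log2(TPM + 1) minus the gene's own basal mean for the 44 tested genes (rows, grouped by role) in the 6 libraries (columns). Most rows are blue in the induced columns on this scale, though the median turns positive on the deposited DESeq2 scale; rows such as Chaf1a, Lig1, Ccne2 and Rrm2 differ between the libraries numbered 3 and the rest.

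Among the E2F factors, the atypical repressors E2f8 and E2f7 had the largest differences. E2f8 stood at 45.6, 41.1 and 41.7 TPM in the basal and 24.2, 23.2 and 24.1 TPM in the induced libraries. All 3 induced libraries were close together and below every basal one, and E2f8 fell 1.8-fold (log2 difference -0.82, SE 0.13; limma adjusted p = 0.0429, or 0.000751 with the block; 95% interval -1.12 to -0.52). The gene occupies 48866429 to 48881596 of chromosome 7, minus strand (mm10, GENCODE model ENSMUSG00000046179.17). Its call ended after quantile normalization (limma adjusted p = 0.0563), after median-ratio rescaling (0.0508) and on the deposited DESeq2 scale (0.0676, log2 difference -0.39). Leaving out any single library but induced 3 also ended it (0.155 to 0.251), while the log2 difference stayed between -0.85 and -0.77. E2f7, on the plus strand of chromosome 10 from 110745439 to 110787384, stood at 52.2, 46.7 and 38.3 TPM in the basal and 28.8, 27 and 19.7 TPM in the induced libraries. The groups did not overlap and the mean was 1.82-fold lower, but the wider spread left E2f7 short of the threshold without the block (log2 difference -0.84, SE 0.20; limma adjusted p = 0.105, or 0.00066 with the block).

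Of the activating factors 1 of 3 passed, with the block and lower, against 14% of all genes. E2f1, the factor best known for starting the programme, stood at 142, 149 and 138 TPM in the basal and 118, 116 and 112 TPM in the induced libraries, so that every induced library was below every basal one. It fell with the block only (log2 difference -0.30, SE 0.11; limma adjusted p = 0.268, or 0.0298 with the block). E2f2, another activator, stood at 56.1, 54.4 and 43.1 TPM in the basal and 69, 51.5 and 54.4 TPM in the induced libraries, with overlapping groups (log2 difference 0.18; limma adjusted p = 0.731, or 0.251 with the block). E2f3, the other activator, ranged from 4.38 to 11.1 TPM in induced cells (log2 difference -0.15; limma adjusted p = 0.907, or 0.516 with the block). The median over the 5 factors was -0.30 and becomes 0.12 on the deposited DESeq2 scale. Differences between one factor and another were not tested.

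Of the 6 tested cyclins and kinases of the G1/S transition, 3 fell with the block and none rose, against 14% and 8.23% of all genes. Ccne1, which encodes the cyclin E1 that drives CDK2, stood at 208, 223 and 252 TPM in the basal and 163, 153 and 182 TPM in the induced libraries. The groups did not overlap, and Ccne1 fell with the block (log2 difference -0.45, SE 0.14; limma adjusted p = 0.176, or 0.00597 with the block). Cdk2, the gene of its kinase, and Ccne2 also fell with the block. Cdk2 was 1.27-fold lower in its mean (log2 difference -0.36; limma adjusted p = 0.436, or 0.0265 with the block), with a log2 difference of -0.19 without induced 3. Ccne2, encoding cyclin E2, ran from 97.6 to 43.3 TPM among basal libraries alone, a spread wider than its group difference (log2 difference -0.55; limma adjusted p = 0.652, or 0.00908 with the block). Its log2 difference was -0.28 without basal 1, -0.85 without basal 3, -0.82 without induced 1 and -0.12 without induced 3. Cdc25a, the phosphatase that activates CDK2, stood at 60.6, 59.1 and 54.7 TPM in the basal and 52.6, 46.1 and 44.3 TPM in the induced libraries, without overlap and just short of the threshold with the block (log2 difference -0.28; limma adjusted p = 0.388, or 0.0527 with the block).

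Of cyclin D and its kinase no tested gene passed, with or without the block. Cdk4, the kinase bound by D-type cyclins, stood at 312, 360.1 and 333 TPM in the basal and 431, 378 and 385 TPM in the induced libraries, above every basal library in each induced one, 1.19-fold in the means, but it did not pass the threshold (log2 difference 0.25, SE 0.12; limma adjusted p = 0.413, or 0.0874 with the block). With 0.43 added to every induced value (the deposited DESeq2 scale), the limma fit called Cdk4 higher (log2 difference 0.68), as it did 19% of all genes. The deposited DESeq2 table itself does not list Cdk4. Ccnd3 was the 1 D-type cyclin above the filter, at 46.6 ± 6.58 TPM among basal and 40.4 ± 4.09 TPM among induced libraries (SD, n = 3) (log2 difference -0.20; limma adjusted p = 0.662, or 0.223 with the block). Ccnd1 stood at 0.997, 0.957 and 0.829 TPM in the basal and 1.24, 0.939 and 0.988 TPM in the induced libraries, and Ccnd2 was listed at 0 in every library but induced 2, where it was listed at 0.0311 TPM. The 6 tested genes of this role had a median of -0.32, which becomes 0.11 on the deposited DESeq2 scale.

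**Figure D2:**
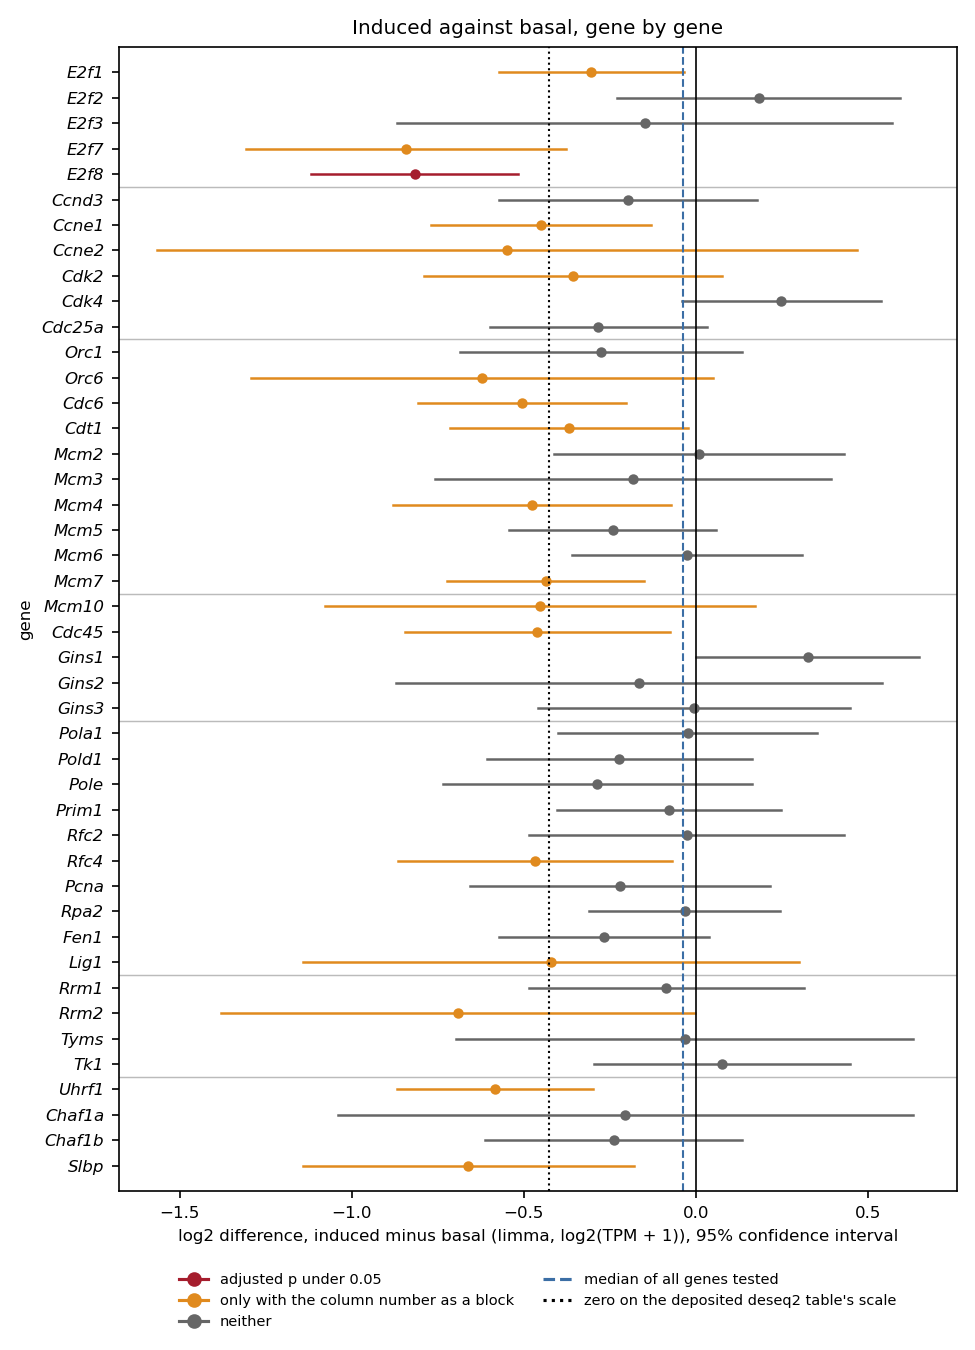
Log2 difference of each tested gene (induced minus basal, points) with its 95% confidence interval from the limma fit without a block (lines), grouped by role. The solid line is zero, the dashed line the median of all genes (-0.04), and the dotted line marks where zero falls on the deposited DESeq2 scale (-0.43), on which points to the right of it become positive; E2f8 is the 1 gene past the threshold without the block, and 17 more pass with it.

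In origin licensing the groups did not overlap for 6 of 10 genes, all lower on the deposited TPM scale, against 12.6% of all genes. Cdc6, which loads the helicase onto origins, stood at 36.4, 32.9 and 33.7 TPM in the basal and 24.8, 23.1 and 23.8 TPM in the induced libraries. The libraries of each group were tight and Cdc6 fell with the block (log2 difference -0.51, SE 0.13; limma adjusted p = 0.125, or 0.00626 with the block). Its partner Cdt1 stood at 119, 143 and 154 TPM in the basal and 110.4, 97.3 and 113 TPM in the induced libraries and fell with the block as well (log2 difference -0.37, SE 0.15; limma adjusted p = 0.298, or 0.0327 with the block). Of the origin recognition complex, Orc6 fell with the block from a mean of 84.3 to 55.9 TPM (log2 difference -0.62; limma adjusted p = 0.373, or 0.0057 with the block), with induced 3 at 35.1 TPM far below the other 5 libraries and a log2 difference of -0.32 without it. Orc1, the subunit that comes and goes with the cycle, stood at 7.04 ± 1.23 TPM among basal and 5.6 ± 0.503 TPM among induced libraries (SD, n = 3) without overlap (log2 difference -0.28; limma adjusted p = 0.544, or 0.158 with the block).

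Of the 6 subunits of the MCM2-7 helicase, 2 fell with the block, against 14% of all genes. Mcm7 stood at 300.2, 315 and 335 TPM in the basal and 219.7, 229 and 254 TPM in the induced libraries and fell with the block (log2 difference -0.44, SE 0.12; limma adjusted p = 0.148, or 0.00505 with the block). Mcm4 did so too, at 203, 187 and 168 TPM in the basal and 156, 139 and 108 TPM in the induced libraries (log2 difference -0.48, SE 0.17; limma adjusted p = 0.25, or 0.00607 with the block). Mcm5 did not overlap between groups, at 106, 102 and 107 TPM in the basal and 95.9, 91.2 and 79.8 TPM in the induced libraries, and did not pass (log2 difference -0.24; limma adjusted p = 0.452, or 0.094 with the block). Mcm2 stood at 179.9, 190.2 and 227 TPM in the basal and 186, 172 and 248 TPM in the induced libraries, a log2 difference of 0.01 with a 95% interval of -0.41 to 0.43. Mcm6 had a log2 difference of -0.03 (interval -0.36 to 0.31), and Mcm3 overlapped between groups too (log2 difference -0.18; limma adjusted p = 0.825, or 0.127 with the block). Whether the subunits differ from each other was not tested. The median of the 10 licensing genes was -0.32 and becomes 0.10 on the deposited DESeq2 scale.

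Of the 5 factors that activate the loaded helicase, 2 fell with the block and none rose, against 14% and 8.23% of all genes. Cdc45, a part of the working helicase, stood at 162, 161 and 199.99 TPM in the basal and 112, 119 and 149 TPM in the induced libraries. No induced library reached the basal range, and Cdc45 fell with the block (log2 difference -0.46, SE 0.16; limma adjusted p = 0.243, or 0.00519 with the block). Mcm10, which helps the helicase start, had basal 3 and induced 3 above the rest of their groups, at 29.1, 29 and 42.7 TPM in the basal and 19.9, 19.8 and 34.5 TPM in the induced libraries, and fell with the block (log2 difference -0.45, SE 0.26; limma adjusted p = 0.515, or 0.0137 with the block), its log2 difference being -0.27 without basal 3 and -0.71 without induced 3. No GINS subunit passed. Gins1 was above every basal library in each induced one, at 35.1, 29.5 and 35.6 TPM in the basal and 41.3, 43.4 and 41 TPM in the induced libraries, 1.26-fold in the means, and did not pass (log2 difference 0.32, SE 0.14; limma adjusted p = 0.33, or 0.0561 with the block). Gins2 and Gins3 overlapped between groups (log2 differences -0.17 and -0.01). The 5 genes had a median of -0.17, or 0.26 on the deposited DESeq2 scale.

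At the fork, 2 of 10 genes fell with the block, a share near the 14% of all genes. Rfc4, a subunit of the complex that loads PCNA, stood at 168, 179.6 and 223 TPM in the basal and 117, 139 and 156 TPM in the induced libraries; all induced values were below the basal range and Rfc4 fell with the block (log2 difference -0.47, SE 0.17; limma adjusted p = 0.252, or 0.00513 with the block). Its neighbour in the complex, Rfc2, was level in the means, at 184 ± 34.1 TPM among basal and 180.2 ± 34.1 TPM among induced libraries (SD, n = 3) (log2 difference -0.03; limma adjusted p = 0.974, or 0.838 with the block). Lig1, the ligase that joins Okazaki fragments, stood at 147, 148 and 239.8 TPM in the basal and 107, 103 and 196 TPM in the induced libraries. Basal 3 and induced 3 were both high, the groups overlapped, and Lig1 fell with the block (log2 difference -0.42, SE 0.31; limma adjusted p = 0.621, or 0.00984 with the block). Its log2 difference was -0.19 without basal 3, -0.26 without induced 2 and -0.72 without induced 3. Fen1, the nuclease that trims those fragments, did not overlap between groups, at 118 ± 11.1 TPM among basal and 97.5 ± 4.58 TPM among induced libraries (SD, n = 3), and lay just short of the threshold with the block (log2 difference -0.27; limma adjusted p = 0.404, or 0.0514 with the block).

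Pcna, the sliding clamp, stood at 1079, 1020.0 and 845 TPM in the basal and 908, 980.4 and 659 TPM in the induced libraries. The ranges overlapped and Pcna did not pass with or without the block (log2 difference -0.22, SE 0.18; limma adjusted p = 0.681, or 0.0857 with the block). Without induced 2 its log2 difference was -0.34 and without induced 3 -0.048. Pole, the catalytic subunit of the leading-strand polymerase, stood at 26.4, 27.3 and 33 TPM in the basal and 21.6, 20 and 29.7 TPM in the induced libraries, also with overlap (log2 difference -0.29, SE 0.19; limma adjusted p = 0.576, or 0.0761 with the block). Pold1, of the lagging-strand polymerase, had a log2 difference of -0.22. Pola1 and Prim1, which make the primers, and Rpa2, which coats single strands, lay near zero at -0.02, -0.08 and -0.03, with intervals of -0.40 to 0.35, -0.41 to 0.25 and -0.31 to 0.24. All 10 genes of the fork were negative on the TPM scale, with a median of -0.22 that becomes 0.21 on the deposited DESeq2 scale.

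**Figure D3:**
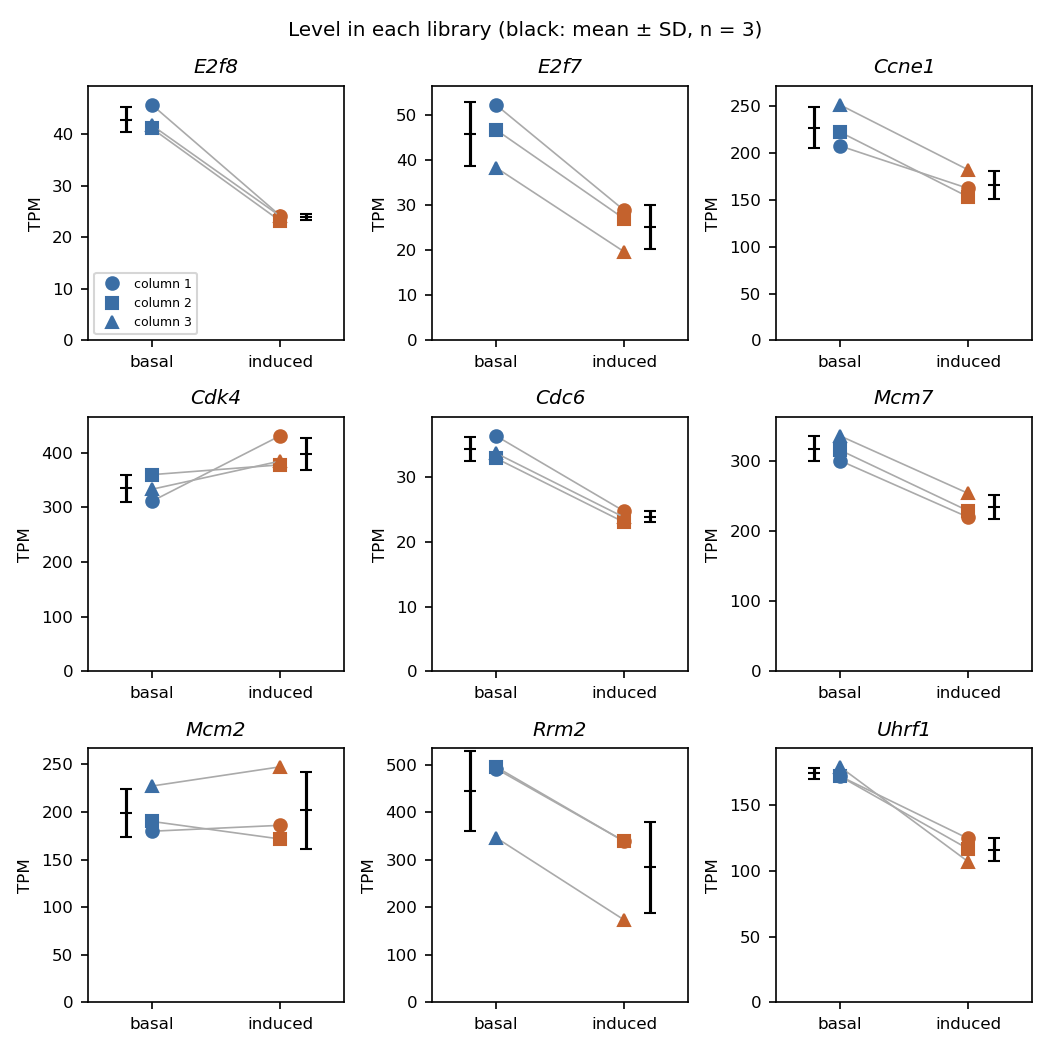
Level in TPM (y axis, from 0) of 9 genes in each library; markers give the column number, grey lines join equal numbers, and black bars are the mean ± SD (n = 3). E2f8, E2f7, Ccne1, Cdc6, Mcm7, Rrm2 and Uhrf1 are lower in every induced library than in any basal one on the TPM scale, Cdk4 is higher, and Mcm2 overlaps; on the deposited DESeq2 scale E2f8, E2f7 and Rrm2 stay lower in their log2 difference (-0.39, -0.42 and -0.26).

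In nucleotide synthesis 1 of 4 genes fell with the block, against 14% of all genes. Rrm2, the subunit whose amount follows S phase, stood at 492, 496 and 347 TPM in the basal and 339, 339 and 174 TPM in the induced libraries. The highest induced library was just under the lowest basal one, the libraries numbered 3 were low in both groups, and Rrm2 fell with the block (log2 difference -0.69, SE 0.29; limma adjusted p = 0.329, or 0.00245 with the block), with a log2 difference of -0.37 without induced 3. Its partner Rrm1, a longer-lived subunit, stood at 149 ± 23 TPM among basal and 140.0 ± 20 TPM among induced libraries (SD, n = 3) (log2 difference -0.09; limma adjusted p = 0.902, or 0.492 with the block). Tyms, which makes thymidylate, stood at 36.3, 36.3 and 27.4 TPM in the basal and 41.5, 39.1 and 20.6 TPM in the induced libraries, and its induced values lay on both sides of the basal ones (log2 difference -0.03, SE 0.28; limma adjusted p = 0.981, or 0.874 with the block). Tk1, thymidine kinase, stood at 130.2, 143 and 170.3 TPM in the basal and 151, 139 and 177 TPM in the induced libraries and did not separate either (log2 difference 0.08, SE 0.16; limma adjusted p = 0.908, or 0.568 with the block). The median over these 4 genes was -0.06, or 0.37 on the deposited DESeq2 scale.

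Chromatin factors of the fork and histone supply were all negative on the TPM scale. Uhrf1, which brings the maintenance DNA methyltransferase to new strands, stood at 172, 172 and 179 TPM in the basal and 124, 117 and 107 TPM in the induced libraries. Its basal libraries were close together and all induced ones were lower, by 1.5-fold in the means, and Uhrf1 fell with the block (log2 difference -0.58, SE 0.12; limma adjusted p = 0.0769, or 0.00267 with the block). It was also called lower without the block once both libraries numbered 3 were left out, and with GC correction. Slbp, which binds the stem-loop of replication-dependent histone transcripts, stood at 385, 370.0 and 310.2 TPM in the basal and 249, 268 and 167 TPM in the induced libraries. The groups did not overlap, induced 3 was the lowest, and Slbp fell with the block (log2 difference -0.66, SE 0.20; limma adjusted p = 0.184, or 0.00214 with the block). The subunits of chromatin assembly factor 1, Chaf1a and Chaf1b, overlapped between groups (log2 difference -0.21; limma adjusted p = 0.882, or 0.18 with the block for Chaf1a; log2 difference -0.24; limma adjusted p = 0.575, or 0.0589 with the block for Chaf1b). The median of the 4 was -0.41 and becomes 0.02 on the deposited DESeq2 scale.

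Most of these genes deviated in the libraries numbered 3 in the same direction in both groups. Set against the mean of libraries 1 and 2 of its own group, library 3 deviated with the same sign in basal and induced cells for 40 of the 44 genes (90.9%), up in 23 and down in 17, against 84.1% of all genes. Chaf1a was 0.78 higher in basal 3 and 1.07 higher in induced 3 on the log2(TPM + 1) scale, and Lig1 0.70 and 0.90 higher. Ccne2 was lower by the same comparison (-0.91 and -1.30), as was Rrm2 (-0.51 and -0.96). E2f8 and Cdc6 hardly deviated (-0.05 and 0.02 for E2f8, and -0.04 in basal 3 for Cdc6). Across the 44 genes, which share the 6 libraries, Spearman's rho between transcript GC content (36.3% to 60.7%) and this deviation was 0.34 in basal 3 and 0.38 in induced 3, and over 12281 tested genes with a GC value 0.50 and 0.53. Between GC content and the induced minus basal difference it was 0.17 for the 44 genes. Without both libraries numbered 3, 7 of the genes were lower at the limma threshold (E2f7, E2f8, Lig1, Mcm7, Rrm2, Slbp and Uhrf1), against 4.04% of all genes, and 0 higher. A correction of each library for GC content, chosen after seeing the data, gave 3 lower (E2f7, E2f8 and Uhrf1), against 2.72% of all genes. Together with the block it gave 21 lower, among them all 18 called by the block alone, and 2 higher (Cdk4 and Gins1), against 14.5% and 13.9% of all genes.

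**Figure D4:**
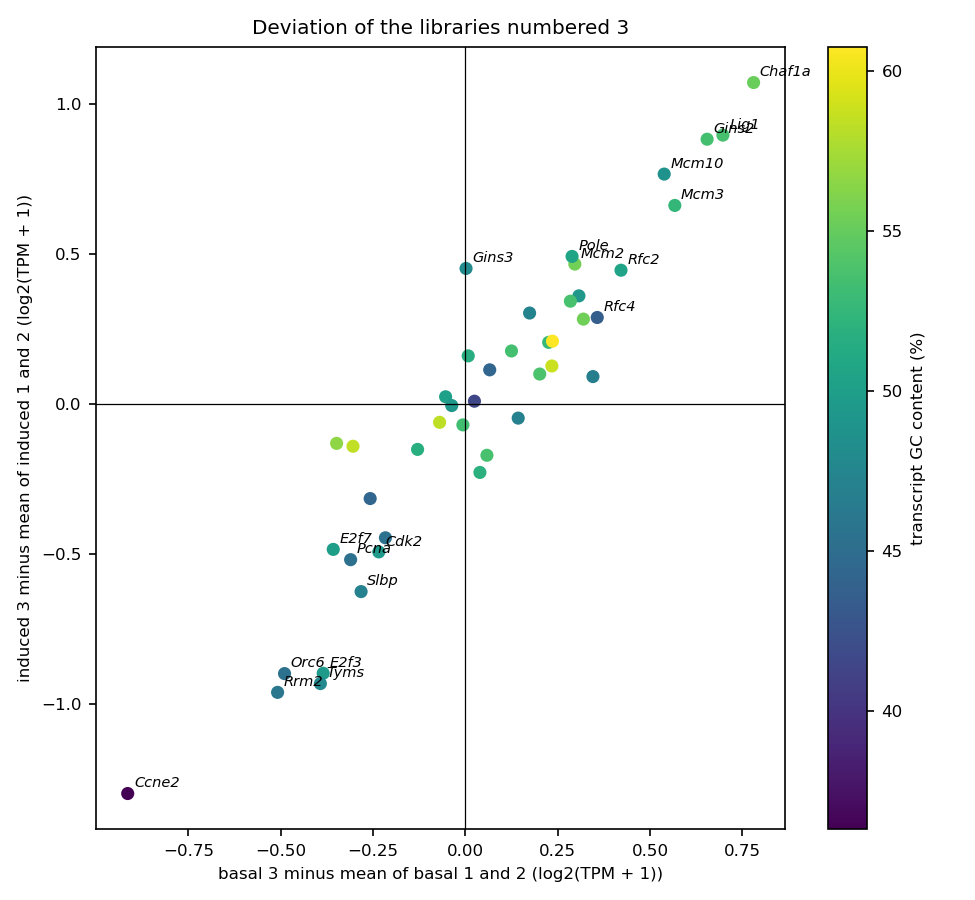
Deviation of library 3 from the mean of libraries 1 and 2 in basal (x axis) and induced cells (y axis), in log2(TPM + 1), for the 44 tested genes, coloured by transcript GC content. The points lie along a rising line from Ccne2 (-0.91, -1.30) to Chaf1a (0.78, 1.07), and 40 of 44 have the same sign on both axes.

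In the deposited tables of the authors' own tests, 11 of the genes appear, all lower in induced cells. The authors' deposited table from Cuffdiff, which lists 1548 genes of which 989 are lower, holds E2f7, E2f8, Ccne1, Orc6, Cdc6, Mcm4, Mcm10, Cdc45, Rrm2, Uhrf1 and Slbp. For E2f8 the authors' deposited table gives 21.6 FPKM in basal and 12.2 FPKM in induced cells, and for Rrm2 225 and 147 FPKM, with q-values of 0.000414 and 0.00503. The log2 differences in the authors' deposited table from Cuffdiff run from -0.83 (E2f7) to -0.44 (Ccne1) over the 11 genes. The authors' deposited table from limma lists 146 genes, of which 130 are lower. It holds E2f8 alone of the genes described here (log2 -0.82, limma adjusted p = 0.0465). Their deposited DESeq2 table, with 195 genes, holds 0 of them.

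Other genes of replication, from textbook lists set beside the 46, were counted in the same way. Of 64 tested, 43 were negative, with a median of -0.12 (0.31 on the deposited DESeq2 scale), 0 passed over all genes in limma, and 9 lower and 2 higher had an unadjusted p under 0.05, where all 12400 genes gave 1185 and 686. With the block 16 (25%) were lower and 4 (6.25%) higher, against 14% and 8.23% of all genes. In origin licensing and firing 5 of 15 were lower with the block and 0 higher. They include both parts of the kinase that fires origins: Cdc7 stood at 36.8 ± 3.53 TPM among basal and 25.6 ± 4.42 TPM among induced libraries (SD, n = 3) (log2 difference -0.52; limma adjusted p = 0.207, or 0.0065 with the block) and its activator Dbf4 at 93.2 ± 5.16 TPM among basal and 70.3 ± 8.5 TPM among induced libraries (SD, n = 3) (log2 difference -0.41; limma adjusted p = 0.235, or 0.0184 with the block). Among other polymerase, clamp loader and fork genes 6 of 25 were lower with the block and 1 higher, and without the block Rfc3, a further clamp loader subunit, had the smallest p, at 171 ± 14.6 TPM among basal and 124 ± 11.8 TPM among induced libraries (SD, n = 3) (log2 difference -0.47; limma adjusted p = 0.163, or 0.00505 with the block), followed by Rnaseh2c, a subunit of the ribonuclease that removes RNA from DNA (log2 difference -0.44; limma adjusted p = 0.206, or 0.0102 with the block). Of the 12 replication-coupled chromatin genes 4 were lower and 1 higher with the block, and in the fit without it the smallest p were those of Asf1b, a histone chaperone (log2 difference -0.38; limma adjusted p = 0.27, or 0.0222 with the block), and Hat1, a histone acetyltransferase (log2 difference -0.32; limma adjusted p = 0.324, or 0.0292 with the block).

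Of 12 other genes of nucleotide supply 2 (16.7%) rose and 1 (8.33%) fell with the block, against 8.23% and 14% of all genes. Of the 12, 6 were positive, the median was 0.07 (0.49 on the deposited DESeq2 scale), and in 4 (Dctd, Nme1 and, named after their values were seen, Cad and Umps) all induced libraries were above all basal ones, in 0 below. The gene that fell was Dck, deoxycytidine kinase, also named after its values were seen (log2 difference -0.48; limma adjusted p = 0.708, or 0.0109 with the block). Dctd, which deaminates deoxycytidylate on the way to thymidylate, stood at 8.78, 9.37 and 8.48 TPM in the basal and 13.1, 14.9 and 13.5 TPM in the induced libraries and rose with the block (log2 difference 0.59, SE 0.14; limma adjusted p = 0.109, or 0.00628 with the block). Nme1, a nucleoside diphosphate kinase, stood at 372, 349 and 312 TPM in the basal and 552, 553 and 402 TPM in the induced libraries and rose with it too (log2 difference 0.53, SE 0.16; limma adjusted p = 0.187, or 0.00333 with the block). Cad and Umps, enzymes of pyrimidine synthesis from simple precursors, did not pass (log2 difference 0.28; limma adjusted p = 0.417, or 0.0596 with the block for Cad; log2 difference 0.25; limma adjusted p = 0.45, or 0.086 with the block for Umps).

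Of 16 tested genes of the retinoblastoma family, other E2F factors and their partners, CDK inhibitors and Ccna2, 8 fell with the block, against 14% of all genes. Of the 16, 14 were negative, with a median of -0.28 (0.14 on the deposited DESeq2 scale). In limma without the block 0 passed, and 5, all lower, had an unadjusted p under 0.05, where all 12400 genes gave 1185 lower and 686 higher. With the block 0 were higher. The 2 positive genes were the CDK4 and CDK6 inhibitors Cdkn2d, with all induced libraries above all basal ones (log2 difference 0.23; limma adjusted p = 0.548, or 0.101 with the block), and Cdkn2c (log2 difference 0.19; limma adjusted p = 0.813, or 0.143 with the block), both named after their values were seen. Cdkn1c, the CDK inhibitor p57, stood at 97.1, 95.3 and 70 TPM in the basal and 44.4, 48.1 and 30.8 TPM in the induced libraries, 2.13-fold lower in the means without overlap (log2 difference -1.08, SE 0.22; limma adjusted p = 0.0738, or 0.00018 with the block). Cdkn1a, the inhibitor p21 and a p53 target, stood at 1201, 1128 and 1002 TPM in the basal and 711, 658 and 464 TPM in the induced libraries and fell with the block (log2 difference -0.88, SE 0.18; limma adjusted p = 0.079, or 0.000441 with the block). The pocket protein genes Rb1 and Rbl1, whose products hold E2F back, fell with the block as well and are named, like Plk1 below, after their values were seen (log2 difference -1.07; limma adjusted p = 0.143, or 0.00136 with the block for Rb1; log2 difference -0.67; limma adjusted p = 0.355, or 0.00317 with the block for Rbl1). Genes of G2 and mitosis were spread on both sides: 13 of 20 were negative, against 55.1% of all genes, with a median of -0.17 (0.25 on the deposited DESeq2 scale). Against 14% lower and 8.23% higher of all genes with the block, 6 of the 20 were lower and 1 higher. The higher one was the polo-like kinase Plk1 (log2 difference 0.34, limma adjusted p = 0.251, or 0.0293 with the block). Kif20a and Bub1, a motor of late mitosis and a checkpoint kinase, had the smallest p of these 20 genes in the fit without the block (log2 difference -0.55, limma adjusted p = 0.145, or 0.00639 with the block for Kif20a, and log2 difference -0.57, limma adjusted p = 0.183, or 0.00372 with the block for Bub1).

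**Figure D5:**
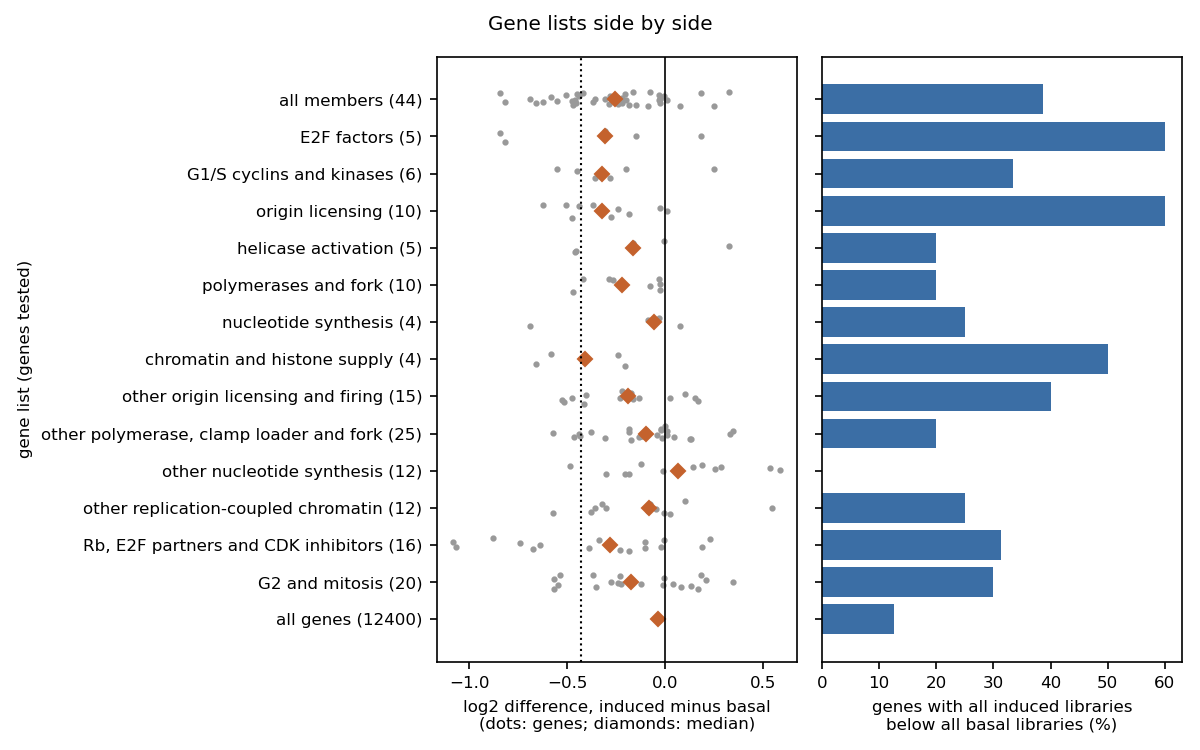
Left, log2 difference (induced minus basal) of each tested gene (dots) and the median (diamonds) for the 44 genes, their roles and the other lists, with the median alone for all 12400 genes; the dotted line is zero on the deposited DESeq2 scale, on which medians to the right of it turn positive. Right, the percentage of genes with all induced libraries below all basal ones, 38.6% for the 44 genes and 12.6% for all genes.

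The promoter matches were set beside the calls, with no test. Of the 16 genes with a promoter window that were lower with the block, 10 held the core (62.5%), and of the other 22 genes 16 did (72.7%). For the CCAAT box the same counts, 10 of 16 and 16 of 22, were found. E2f1, Ccne1, Slbp and Cdc45, which fell with the block, had no match to these letters in their windows, and Mcm6, with a log2 difference of -0.03, had 5. The E2f1 window (154569377 to 154569676), counted among those 16 genes, lay wholly inside its GENCODE gene model, which starts at 154569892 on the minus strand. The bases upstream of that start were not searched. No match says only that these letters are not in that window.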

How the data were processed

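RNA of AtT-20 iPAM cells was made into AmpliSeq libraries, which amplify chosen stretches of transcripts, and sequenced in 1 lane (16.6, in units of 1000000 reads, stated per library), per the labels' protocols. The submitters' processing notes name build mm10 and, among the authors' tools, with no role given, TopHat2 2.0.9, Bowtie2 2.1.0.0, Cuffdiff 2.2.0 and Cufflinks 2.2.0. The authors' limma and DESeq2 are listed with no version. Settings and annotation were not given in the sources used here. A deposited sheet named for FPKM holds values that sum to 1000000 in each library, so they are TPM and keep no depth. Amplicon reads need not follow transcript length, and levels are therefore set side by side only within a gene. Between 14491 and 15098 genes were above 0 in a library. The authors' deposited tables give FPKM per group, log2 fold changes, p-values or q-values and, for limma, a B score, per the file headers. Columns carry a group and a number, so they were matched to groups only.

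The test was limma 3.58.1 under R 4.3.3 on log2(TPM + 1) for genes averaging 1 TPM or more (lmFit, eBayes with trend, Benjamini-Hochberg over 12400 genes, threshold 0.05). The code was tested on simulated data with independent noise in each library. Those data held no deviation shared by equal column numbers, so they do not check the block fit where such deviations exist. The pseudocount of 1 understates changes of low genes. "-fold" means a ratio of mean TPM. Deviations from the group means correlated over genes between equal column numbers (r = 0.46, 0.18 and 0.72 for numbers 1, 2 and 3), all above 0.1, so the number was also fitted as a block. Basal 1 and induced 2 correlated at 0.32, basal 2 and induced 1 at 0.28, and number 3 with other numbers of the other group at -0.33 to -0.61. The labels do not tie equal numbers to a shared origin. What is called the scale of the authors' deposited DESeq2 table adds to all genes of the induced libraries the median offset between that table and the fit (0.43). The median was taken over the tested genes that the table lists (195 in all, 0 of them members). GC content came from the longest coding transcript in GENCODE vM21 (12281 of 12400 tested genes). Alternatives were pseudocounts, filters, scalings, variance models, left-out libraries and thresholds, and, added after seeing the data, GC correction. The members and lists were chosen with earlier results of these data known. The naming rule took members called in either fit (block or none) and 17 fixed members, and from each other list genes past the threshold without the block or else the 2 with the smallest p in that fit; not all other genes past it with the block are named. Values of the remaining members (such as Cdc25a, E2f2, Gins1, Fen1, Rfc2, Rrm1 and Chaf1a) are given because all 46 are accounted for, and which of them got fuller values was chosen after the values were seen.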

Additional observations from a re-analysis of the deposited data

How the results depend on the processing

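Without the block, the count of replication genes lower at the limma threshold (1, E2f8) was unchanged with pseudocounts of 0.1 and 0.01, without a filter, with a filter at 5 TPM and under both other variance models. It was 0 after quantile normalization, after median-ratio rescaling, on the deposited DESeq2 scale and at a threshold of 0.01. The shares of all genes called lower there were 0.75%, 0.726%, 1% and 0.0645%. On the deposited DESeq2 scale 3 were higher, against 19% of all genes. The count was 2 at a threshold of 0.1 (2.41% of all genes), 7 without both libraries numbered 3 (4.04%) and 3 with GC correction (2.72%). GC correction with the block gave 21 lower and 2 higher, against 14.5% and 13.9% of all genes. With the replicate block 18 were lower, against 14% of all genes. On the deposited DESeq2 scale with the block 3 were lower and 15 higher, against 3.78% and 61.8% of all genes. Leaving out single libraries gave 0 to 1 lower, against 0% to 1.79% of all genes. The fits without basal 1, basal 2 or induced 1 called 0 genes of all 12400, with 10, 8 and 9 of the 44 genes at an unadjusted p under 0.05. The share of all genes at that p was not counted for these fits, so those counts have no background. The median log2 difference was -0.21 after median-ratio rescaling, 0.17 on the deposited DESeq2 scale with or without the block, -0.22 with GC correction with or without the block, and between -0.30 and -0.22 without single libraries. The cause of these changes was not tested.

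Of 25 named genes, 8 changed sign on the deposited DESeq2 scale, with or without the block, as its construction adds 0.43 to each: E2f1 (0.12), Cdk2 (0.069), Cdt1 (0.059), Mcm5 (0.18), Pole (0.14), Pcna (0.21), Lig1 (0.0062) and Tyms (0.39). Genes near zero also changed sign elsewhere. Tyms became 0.043 after quantile normalization, 0.011 after median-ratio rescaling, 0.15 without both libraries numbered 3 and 0.0064 with GC correction, with or without the block, and ran from -0.21 to 0.28 without single libraries. Mcm2 became -0.015 after quantile normalization and -0.049 without both libraries numbered 3, and ran from -0.15 to 0.11 without single libraries. Tk1 ran from -0.019 to 0.18 without single libraries. The deposited values keep no depth, so counting error could not be computed.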
